A study of Homo sapiens with 7 samples.

Results

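Collagen chains are the gene products that build collagen, the main structural protein of the extracellular matrix. Chains were taken by their symbol (COL, a number, A, a number), after each row of the deposited table had been named through its RefSeq transcript. Of the 44 genes with such a symbol, 43 had a row, and they were read by 47 rows of 24000, that is by 43 of 17217 named genes. COL6A6 was not analysed here. The samples were Daoy cells, an established human medulloblastoma line, labelled wild type and grown, with no treatment given in the labels, in MEM Richter's modification medium with 10% serum, penicillin and streptomycin. Replicate 2 was read on 4 single-colour arrays (arrays 1 to 4) and replicate 1 on 3 (arrays 1, 2 and 4), and each of the 2 biological replicates had a slide of its own, so that culture and slide cannot be told apart.

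Each collagen molecule is a trimer of chains whose repeats of glycine and 2 further residues wind into a helix. Fibrillar chains form the banded fibrils of connective tissue, basement membrane chains form the sheet on which cells rest, and FACIT chains (fibril-associated collagens with interrupted helices) sit on the surface of fibrils. Transmembrane chains are anchored in the plasma membrane, and type VI chains form beaded filaments near the cell. Collagens are known mainly from connective tissue, while the brain's own matrix holds little fibrillar collagen outside vessels and meninges.

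Values are intensities on the log2 scale, and each array had its median at 8.15. A level is the mean of the 2 replicate means, given with the SD over them (n = 2). Background was taken as 7.54, the 95th percentile over 364 genes of olfactory receptors, which are known from the nose. Within a replicate the same limit was 7.24 in replicate 2 and 7.79 in replicate 1. Differences are replicate 2 minus replicate 1 on the log2 scale, from limma over all named genes with Benjamini-Hochberg adjustment, called at 0.05. Arrays of a replicate were taken as repeats of 1 sample, so the adjusted p measures the spread between arrays and compares 2 cultures, not 2 conditions. An intensity depends on how well its probes hybridise, so the levels of different chains were not set against each other. In these bulk samples fewer cells that make a chain and less RNA per cell cannot be told apart.

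Pearson's r across rows was 0.985 to 0.994 within a replicate and 0.948 to 0.962 between replicates. Of 9 markers of granule neuron precursors, the cells from which some medulloblastomas arise, 1 was above background (ZIC2, at 7.75 ± 0.56), and ZIC2 was so in replicate 2 (8.15) but not in replicate 1 (7.35). Fibroblast markers had 7 of 10 genes above background, endothelial markers 3 of 6, chondrocyte markers 2 of 10, osteoblast markers 2 of 7, pericyte and smooth muscle markers 4 of 6, and epithelial and leukocyte markers 1 of 6 each. In the endothelial list TIE1, TEK and PECAM1 were above background while CDH5, VWF and KDR were below it, in the epithelial list CLDN4 was the 1 above, and in the leukocyte list CSF1R was. Markers past the threshold with a difference of at least 1, besides DCN and LUM below, were TIE1 (-1.67, adjusted p = 2.29e-06), CSF1R (-1.38, adjusted p = 5.4e-05), NOTCH3 of smooth muscle (1.33, adjusted p = 3.71e-05) and BGLAP of osteoblasts (1.26, adjusted p = 2.82e-05). The pericyte and smooth muscle list had 1 higher and 2 lower genes, with a median difference of -0.20. Its lower genes were CSPG4 (-0.70, adjusted p = 0.00114) and MYH11 (-0.42, adjusted p = 0.00806). Of this list 50% passed, against 49.8% of all named genes. Among all named genes 60.6% were above background.

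The promoters of 5 chains are shown because they belong to the head-to-head type IV pairs and to the transmembrane chains that moved in opposite directions. Type IV genes lie in pairs on opposite strands, and the start regions of COL4A1 and COL4A2 are 126 bases apart in the RefSeq promoter table, so that their windows of 300 bases share 226. COL4A4 and COL4A3 are 418 bases apart and share 82, and COL4A6 and COL4A5 are 379 bases apart and share 121. Each window below is from RefSeq, build GRCh38.p14, read 5′ to 3′ on the strand of its gene. Both strands were searched for 3 motifs. Capitals mark the CCAAT box (on the other strand ATTGG), the GC box GGGCGG (on the other strand CCGCCC) and the TATA box TATAAA (on the other strand TTTATA), and no match overlapped one of another motif.
COL4A2, chr13:110307034-110307333, plus strand: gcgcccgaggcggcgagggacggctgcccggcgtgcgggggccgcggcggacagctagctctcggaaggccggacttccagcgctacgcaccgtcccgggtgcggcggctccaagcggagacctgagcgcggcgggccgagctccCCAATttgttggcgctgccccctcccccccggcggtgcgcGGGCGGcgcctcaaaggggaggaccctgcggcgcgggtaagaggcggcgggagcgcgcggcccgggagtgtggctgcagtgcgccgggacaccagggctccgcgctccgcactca
COL4A3, chr2:227164374-227164673, plus strand: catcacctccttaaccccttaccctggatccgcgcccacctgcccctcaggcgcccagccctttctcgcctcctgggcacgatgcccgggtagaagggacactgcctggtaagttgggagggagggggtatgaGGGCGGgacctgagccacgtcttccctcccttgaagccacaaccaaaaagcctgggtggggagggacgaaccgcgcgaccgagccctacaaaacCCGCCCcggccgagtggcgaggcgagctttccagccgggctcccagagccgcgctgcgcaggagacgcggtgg
COL4A5, chrX:108439588-108439887, plus strand: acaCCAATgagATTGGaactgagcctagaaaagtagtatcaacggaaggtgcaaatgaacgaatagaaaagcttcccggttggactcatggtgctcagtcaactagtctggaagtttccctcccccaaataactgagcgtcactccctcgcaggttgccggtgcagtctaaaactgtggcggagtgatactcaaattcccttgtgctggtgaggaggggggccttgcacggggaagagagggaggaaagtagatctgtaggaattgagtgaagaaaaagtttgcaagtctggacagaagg
COL13A1, chr10:69801656-69801955, plus strand: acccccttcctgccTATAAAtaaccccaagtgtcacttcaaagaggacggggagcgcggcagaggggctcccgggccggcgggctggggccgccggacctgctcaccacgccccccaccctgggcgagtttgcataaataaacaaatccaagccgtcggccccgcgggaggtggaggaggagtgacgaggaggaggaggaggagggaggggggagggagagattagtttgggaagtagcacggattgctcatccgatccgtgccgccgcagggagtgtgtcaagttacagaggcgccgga
COL23A1, chr5:178590344-178590643, minus strand: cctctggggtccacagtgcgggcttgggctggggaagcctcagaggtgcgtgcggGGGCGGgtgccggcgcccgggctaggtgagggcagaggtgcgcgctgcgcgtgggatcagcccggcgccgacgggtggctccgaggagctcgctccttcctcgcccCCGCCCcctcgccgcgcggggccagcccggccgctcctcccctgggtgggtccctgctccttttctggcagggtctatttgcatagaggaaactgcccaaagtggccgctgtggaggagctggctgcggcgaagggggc
A promoter window was found for 31 of the 43 chains. Among the 12 without one were COL1A1, COL1A2, COL2A1, COL3A1, COL5A2, COL6A1, COL8A1 and COL9A3, all above background, so the shares below leave them out. Each chain had 1 window, at its outermost start, while the set of all windows was not reduced in this way. No share was taken over all genes above background, so whether the shares are particular to collagen chains was not tested. GGGCGG or its complement stood in 14 of the 20 windows of chains above background (70%), in 2 of the 11 windows of chains at or below background (18.2%) and in 45% of all 35116 windows. CCAAT stood in 25% of the windows of chains above background, 36.4% of the others and 34.6% of all windows, and TATAAA in 15%, 9.09% and 11.5%. The median ratio of observed to expected CG pairs was 0.75 for chains above background and 0.42 for the others, against 0.58 for all windows. These are letters in a window and give no site of binding, and windows of paired genes overlap.

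Of the 43 chains, 29 (67.4%) were above background, against 60.6% of all named genes. The median level of the chains was 8.41, and levels ran from 5.67 to 14.80. Basement membrane chains had 8 of 9 above background, fibrillar chains 9 of 11 and type VI chains 3 of 4. FACIT chains had 5 of 10, transmembrane chains 2 of 4 and the remaining chains 2 of 5. When the background was raised to the 99th percentile of those receptor genes, 21 chains lay above it, with 3 FACIT chains, 0 transmembrane chains and 1 of the remaining chains among them. The plot of collagen chains by array shows each value.

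**Figure D1:**
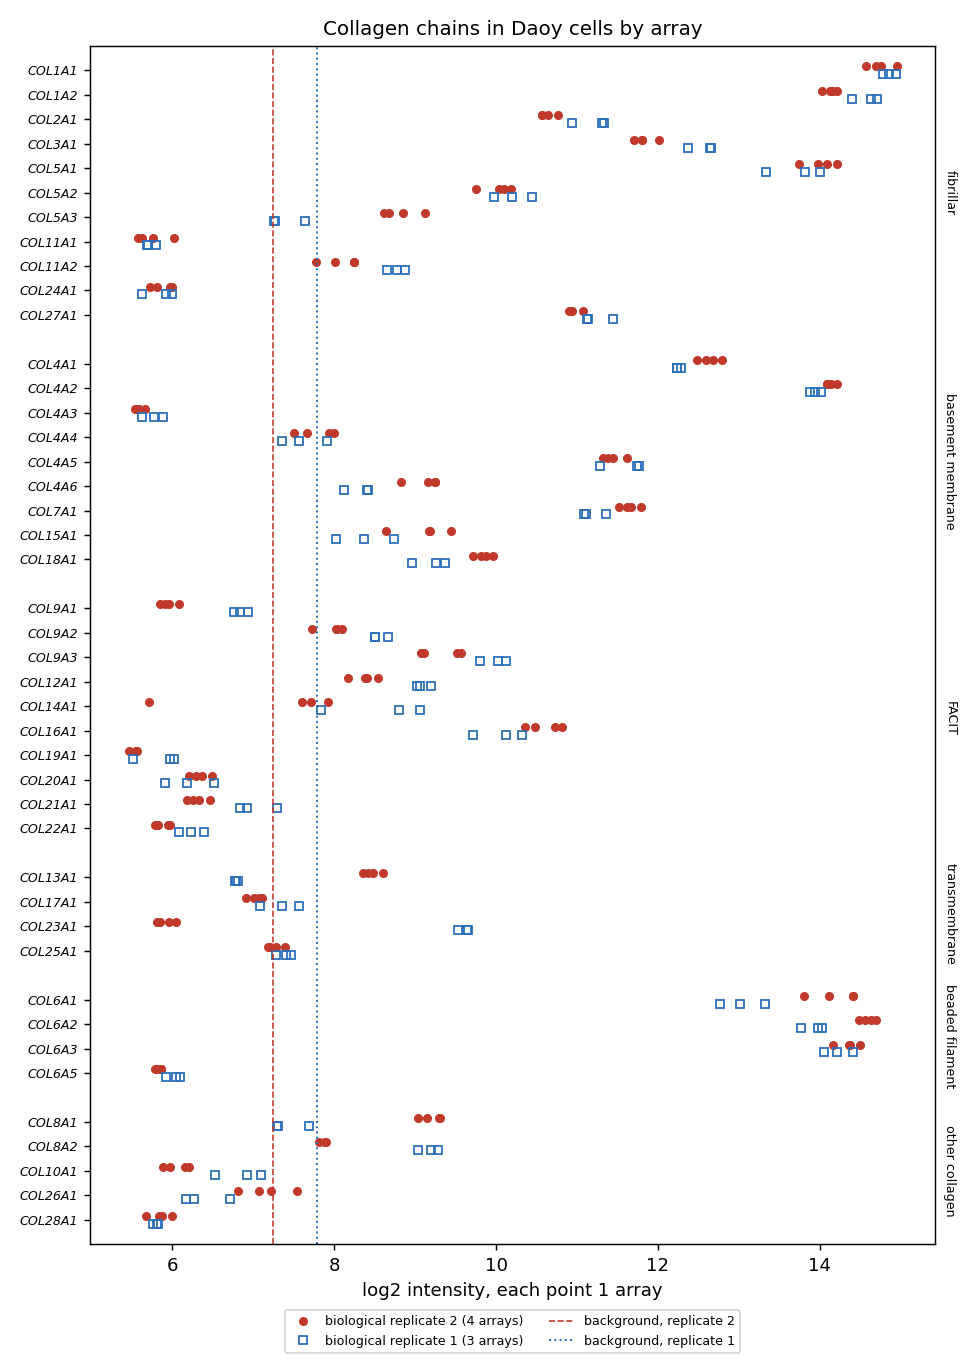
The log2 intensity of 43 collagen chains on each array, grouped by class, with filled circles for the 4 arrays of replicate 2, open squares for the 3 arrays of replicate 1, and vertical lines for the background of each replicate (7.24 and 7.79). COL1A1, COL1A2, COL5A1, COL4A1, COL4A2, COL6A1, COL6A2 and COL6A3 lie far to the right of both lines, and 14 chains have a level at or below 7.54.

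Between the replicates 25 of 43 chains differed at the threshold (58.1%), against 49.8% of all named genes. Of these, 12 were higher in replicate 2, against 25.5% of named genes, and 13 were lower, against 24.2%. A difference of at least 1 past the threshold was found for 4 higher chains, against 4.97% of named genes, and for 2 lower chains, against 4% (8.97% in either direction). All arrays of replicate 2 lay on 1 side of all arrays of replicate 1 for 27 chains, and for 52.4% of named genes. The median size of the difference was 0.54 for chains and 0.32 for named genes, and the median SD between arrays was 0.13 for both in replicate 2, and 0.17 for chains and 0.15 for named genes in replicate 1. Of the 25 calls, 22 held under each alternative in which the chain was tested, a minimum difference aside, and the others (COL15A1, COL16A1, COL22A1) are described with their class.

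**Figure D2:**
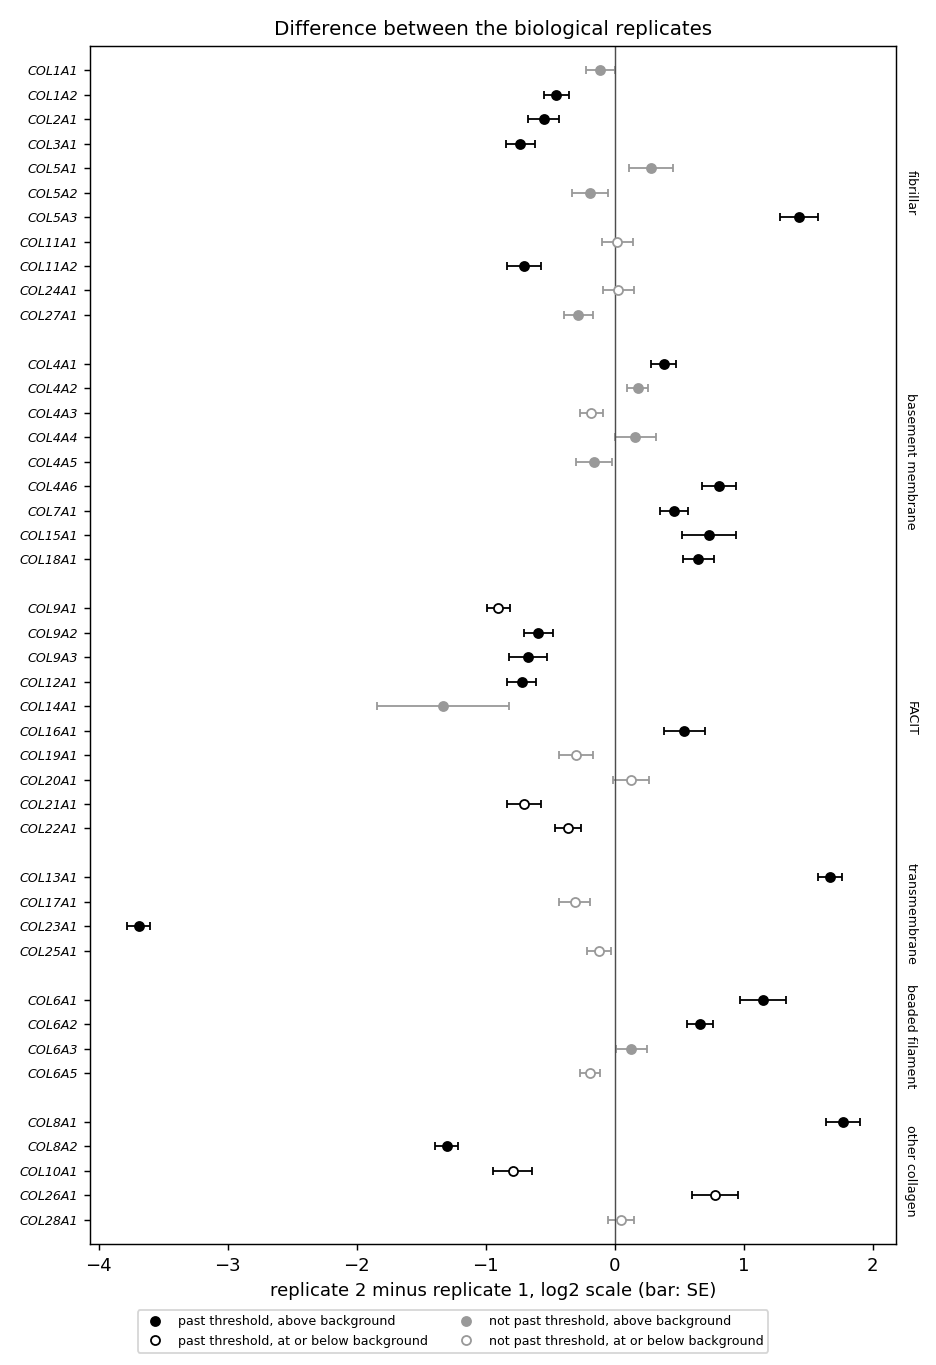
Replicate 2 minus replicate 1 for each chain on the log2 scale, with its SE as a bar, grouped by class; black marks passed the threshold and open marks are at or below background. Basement membrane marks past the threshold lie to the right of 0 (5 of 5), and FACIT marks past it lie to the left in 6 of 7.

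Of 11 fibrillar chains, 4 were lower in replicate 2 (against 24.2% of all named genes), 1 was higher (against 25.5%) and 6 did not pass. In this class 45.5% passed, against 49.8% of all named genes, a share near that background. The median difference of fibrillar chains was -0.19, against -0.01 for all named genes. COL1A1, a chain of type I collagen, the main fibril of bone, skin and tendon, had 14.76, 14.95, 14.70 and 14.57 in replicate 2, against 14.78, 14.94 and 14.86 in replicate 1. Its arrays overlapped, and the difference of -0.11 ± 0.11 (SE, adjusted p = 0.408) did not pass. Its partner COL1A2 had 14.13, 14.03, 14.17 and 14.21 in replicate 2, against 14.71, 14.40 and 14.63 in replicate 1. All arrays of replicate 2 lay below those of replicate 1, a difference of -0.45 ± 0.10 (SE, adjusted p = 0.00546) that came to 1.36-fold lower. COL3A1, the chain of type III collagen in pliable tissues, stood at 12.19 ± 0.51 and was 1.66-fold lower in replicate 2, with 11.80, 12.01, 11.71 and 11.80 there, against 12.64, 12.66 and 12.37 in replicate 1 (adjusted p = 0.000634).

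Type V collagen starts and limits the growth of type I fibrils, and of its 3 chains COL5A3 passed the test. COL5A1 had 13.98, 13.74, 14.21 and 14.09 in replicate 2, against 13.82, 13.34 and 14.01 in replicate 1. These arrays overlapped (0.28 ± 0.17 SE, adjusted p = 0.203). COL5A2 was at 10.11 ± 0.13 with a difference of -0.19 ± 0.14 (SE, adjusted p = 0.305), also with overlapping arrays. COL5A3, the third type V chain, had 8.62, 9.12, 8.85 and 8.68 in replicate 2, against 7.27, 7.25 and 7.64 in replicate 1. It was below background in replicate 1 and above it on every array of replicate 2, and was at least 2.03-fold higher there (adjusted p = 6.57e-05).

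Among the remaining fibrillar chains, COL27A1 stood at 11.10 ± 0.20, with a difference of -0.28 ± 0.11 (SE, adjusted p = 0.0557). Its arrays did not overlap, and it passed with a block for the array number (adjusted p = 0.0361) and without array 2 of replicate 2 (adjusted p = 0.0487). COL24A1 was below background at 5.86 ± 0.02 (0.03 ± 0.12 SE, adjusted p = 0.851), and so was COL11A1, which helps to start cartilage fibrils, at 5.74 ± 0.01 (0.02 ± 0.12 SE, adjusted p = 0.902).

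Most chains of types II, IX, X and XI, which are known from cartilage, were lower in replicate 2. This group was put together after its values were seen and serves as a description. It overlaps the classes. COL2A1 and COL11A2 are also among the lower fibrillar chains, and COL9A1, COL9A2 and COL9A3 among the lower FACIT chains. Of its 7 chains, 6 were lower and 0 higher, with a median difference of -0.67, and 4 were above background. Among all named genes 24.2% were lower and 25.5% higher. COL2A1, the main fibril chain of cartilage, was at 10.91 ± 0.39 and 1.47-fold lower (-0.55 ± 0.12 SE, adjusted p = 0.00377). COL11A2, a type XI chain, was at 8.41 ± 0.49 and 1.62-fold lower (-0.70 ± 0.13 SE, adjusted p = 0.00202). Type IX collagen decorates type II fibrils. Its chain COL9A3 was at 9.65 ± 0.47 and 1.59-fold lower (-0.67 ± 0.15 SE, adjusted p = 0.00521), and COL9A2 was at 8.26 ± 0.42 and 1.50-fold lower (-0.59 ± 0.11 SE, adjusted p = 0.00195). COL9A1, at 6.40 ± 0.63, was below background in both replicates (-0.90 ± 0.09 SE, adjusted p = 6.99e-05). COL10A1, of hypertrophic cartilage, was below background too at 6.45 ± 0.56, with a difference of -0.79 ± 0.15 (SE, adjusted p = 0.00173). All 6 had arrays that did not overlap, as had 52.4% of all named genes, and their calls held without any 1 array. The 10 chondrocyte markers had 1 higher and 1 lower gene (20% passed, against 49.8% of all named genes). Without array 4 of replicate 1 they had 0 higher. They had 2 lower, with SOX6, without array 3 of replicate 2. This was so too with a block for the array number, where SOX6 had an adjusted p of 0.007. Their mean level per array was 7.06 to 7.22 in replicate 2 and 7.10 to 7.16 in replicate 1. The 2 markers above background did not pass: SOX9, a regulator of cartilage genes, at 9.90 ± 0.00 (difference 0.00), and HAPLN1 at 9.98 ± 0.01 (0.02). The lower gene was COMP (-0.63, adjusted p = 0.000766) and the higher gene CHAD (0.60, adjusted p = 0.0169), both below background in both replicates. The proteoglycan ACAN was below background at 5.74 ± 0.10. The part of these markers in the differences of the chains was not tested.

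Basement membrane chains that differed were higher in replicate 2. Of 9 chains, 5 were higher (against 25.5% of all named genes), 0 were lower (against 24.2%) and 4 did not pass. In this class 55.6% passed, against 49.8% of all named genes, with a median difference of 0.38. Without array 2 of replicate 1 the counts were 4 higher and 1 lower (COL4A5). COL4A2, a chain of the type IV network of all basement membranes, had 14.09, 14.14, 14.21 and 14.09 in replicate 2, against 14.02, 13.88 and 13.94 in replicate 1. Its arrays lay just above those of replicate 1, but the difference of 0.18 ± 0.08 (SE, adjusted p = 0.0986) did not pass. COL4A1, which joins COL4A2 in 1 molecule and shares its start region (shown above), had 12.79, 12.60, 12.48 and 12.68 in replicate 2, against 12.29, 12.24 and 12.24 in replicate 1. It was 1.30-fold higher (0.38 ± 0.10 SE, adjusted p = 0.01). Whether the partners of a pair differed from each other in this was not tested, here or for the pairs that follow.

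In the other head-to-head pairs the partners stood on different sides of the background or of the threshold. COL4A5, of type IV networks in kidney and smooth muscle, had 11.38, 11.32, 11.62 and 11.45 in replicate 2, against 11.74, 11.29 and 11.77 in replicate 1. Array 2 was the lowest in each replicate, and the difference of -0.16 ± 0.14 (SE, adjusted p = 0.36) passed only without array 2 of replicate 1 (-0.32, adjusted p = 0.0422). COL4A6, its neighbour, was at 8.72 ± 0.57 as the mean of 2 rows and higher in replicate 2 (0.81 ± 0.13 SE, adjusted p = 0.000949). No fold is given, since 1 of its rows lay below background in replicate 1. COL4A4, of the kidney filter, had 7.93, 8.00, 7.50 and 7.66 in replicate 2, against 7.91, 7.57 and 7.36 in replicate 1. These lie around the background and overlap (0.16 ± 0.16 SE, adjusted p = 0.438). COL4A3, its neighbour, was below background at 5.67 ± 0.13 and did not pass (-0.18 ± 0.09 SE, adjusted p = 0.148).

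The other basement membrane chains were COL7A1, COL15A1 and COL18A1. COL7A1, which forms the anchoring fibrils of skin, was at 11.42 ± 0.33 and 1.38-fold higher in replicate 2 (0.46 ± 0.11 SE, adjusted p = 0.00562). COL18A1, the source of the fragment endostatin, was at 9.52 ± 0.46 and 1.57-fold higher (0.65 ± 0.12 SE, adjusted p = 0.0015). Its relative COL15A1 had 9.44, 8.64, 9.17 and 9.18 in replicate 2, against 8.74, 8.02 and 8.37 in replicate 1. Array 2 of replicate 2 lay below array 1 of replicate 1, the difference was 0.73 ± 0.21 (SE, adjusted p = 0.0172), and the call ended without array 2 of replicate 1 (adjusted p = 0.0649).

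Most FACIT chains that differed were lower in replicate 2. Of 10 chains, 6 were lower (against 24.2% of all named genes), 1 was higher (against 25.5%) and 3 did not pass. In this class 70% passed, against 49.8% of all named genes, with a median difference of -0.63. The lower chains include COL9A1, COL9A2 and COL9A3, which were counted above with types II, IX, X and XI. COL12A1, which sits on type I fibrils, had 8.54, 8.17, 8.38 and 8.40 in replicate 2, against 9.20, 9.02 and 9.06 in replicate 1. It was 1.65-fold lower with no overlap (-0.72 ± 0.11 SE, adjusted p = 0.000519). COL9A3, described above, had 9.52, 9.57, 9.11 and 9.07 in replicate 2, against 10.03, 10.12 and 9.80 in replicate 1. The exception was COL16A1, with 10.36, 10.48, 10.81 and 10.73 in replicate 2, against 9.72, 10.32 and 10.12 in replicate 1. It was 1.45-fold higher (0.54 ± 0.16 SE, adjusted p = 0.0194), and this call ended without array 1 of replicate 1 (adjusted p = 0.0747), which left 0 higher FACIT chains.

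COL14A1, another chain on type I fibrils, showed a split within each replicate. It had 7.92, 5.71, 7.60 and 7.71 in replicate 2, against 9.06, 7.84 and 8.80 in replicate 1. Array 2 was the lowest in both replicates, and the replicates overlapped. Its difference of -1.33 ± 0.51 (SE, adjusted p = 0.0539) did not pass. It passed with a block for the array number (-1.46, adjusted p = 0.00152), and without array 2 of replicate 2 it was -0.82 (adjusted p = 0.0353). It also passed without array 2 of replicate 1 (adjusted p = 0.0352) and without array 1 of replicate 2 (adjusted p = 0.0441).

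The dimmer FACIT chains lay under the limit of each replicate, and no fold is given for them. COL21A1, at 6.66 ± 0.50, was lower (-0.70 ± 0.13 SE, adjusted p = 0.0016). COL22A1, a chain of muscle-tendon junctions, was at 6.05 ± 0.25 and also lower (-0.36 ± 0.10 SE, adjusted p = 0.0178), but this call ended without array 4 of replicate 1 (adjusted p = 0.0701). COL20A1 was at 6.27 ± 0.10 with a difference of 0.13 ± 0.14 (SE, adjusted p = 0.461), and COL19A1 at 5.68 ± 0.21 with -0.30 ± 0.13 (SE, adjusted p = 0.0744). Neither passed, although COL19A1 did without array 2 of replicate 1 (-0.46, adjusted p = 0.00356). Of the 14 chains at or below background in all, 4 were lower and 1 higher (35.7% passed, against 49.8% of all named genes). The olfactory receptor genes had 63 lower and 28 higher of 364, with a median difference of -0.04. Their part in the differences of dim chains was not tested. All 25 calls kept their direction and side of the threshold when each array was centred on these genes. The median of these genes was 5.78 in replicate 2 and 5.80 in replicate 1, so this centring moved each difference little. It left the gap between their upper limits (7.24 and 7.79) in place and cannot show how that gap bears on dim chains.

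Among 4 transmembrane chains, COL23A1 was lower in replicate 2, COL13A1 was higher and the others did not pass. Their median difference was -0.21, and 50% passed, against 49.8% of all named genes. COL23A1 had 5.85, 6.05, 5.96 and 5.81 in replicate 2, against 9.65, 9.53 and 9.64 in replicate 1. It was below background on every array of replicate 2 and at least 5.17-fold lower there (adjusted p = 2.37e-07). COL13A1, known from the junction of nerve and muscle, had 8.48, 8.60, 8.35 and 8.42 in replicate 2, against 6.81, 6.79 and 6.77 in replicate 1. It was below background on every array of replicate 1 and at least 1.59-fold higher in replicate 2 (adjusted p = 3.41e-06).

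COL17A1, of the hemidesmosomes that fix epithelial cells, had 7.01, 6.91, 7.11 and 7.07 in replicate 2, against 7.08, 7.57 and 7.36 in replicate 1. Its level of 7.18 ± 0.22 was below background and its difference of -0.31 ± 0.12 (SE, adjusted p = 0.0599) passed only without array 1 of replicate 1 (-0.44, adjusted p = 0.0145), which made 2 transmembrane chains lower. COL25A1, found in amyloid plaques, had 7.18, 7.39, 7.28 and 7.21 in replicate 2, against 7.40, 7.47 and 7.28 in replicate 1, as the mean of 2 rows. Its level of 7.33 ± 0.08 was below background and its arrays overlapped (-0.12 ± 0.09 SE, adjusted p = 0.328).

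Of 4 type VI chains, 2 were higher in replicate 2 and 0 lower (50% passed, against 49.8% of all named genes), with a median difference of 0.39. COL6A1 had 14.41, 14.41, 13.81 and 14.11 in replicate 2, against 12.77, 13.33 and 13.01 in replicate 1. No arrays overlapped, and it was 2.22-fold higher in replicate 2 (1.15 ± 0.18 SE, adjusted p = 0.000653). COL6A2, whose gene neighbours COL6A1, had 14.70, 14.64, 14.56 and 14.48 in replicate 2, against 14.03, 13.98 and 13.77 in replicate 1 as the mean of 3 rows. It was 1.58-fold higher (0.66 ± 0.10 SE, adjusted p = 0.000581). COL6A3, the third chain of the usual type VI molecule, had 14.36, 14.16, 14.37 and 14.50 in replicate 2, against 14.05, 14.21 and 14.41 in replicate 1. Its arrays overlapped and it did not pass (0.13 ± 0.12 SE, adjusted p = 0.404). COL6A5 was below background at 5.93 ± 0.13 (-0.19 ± 0.08 SE, adjusted p = 0.0949).

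**Figure D3:**
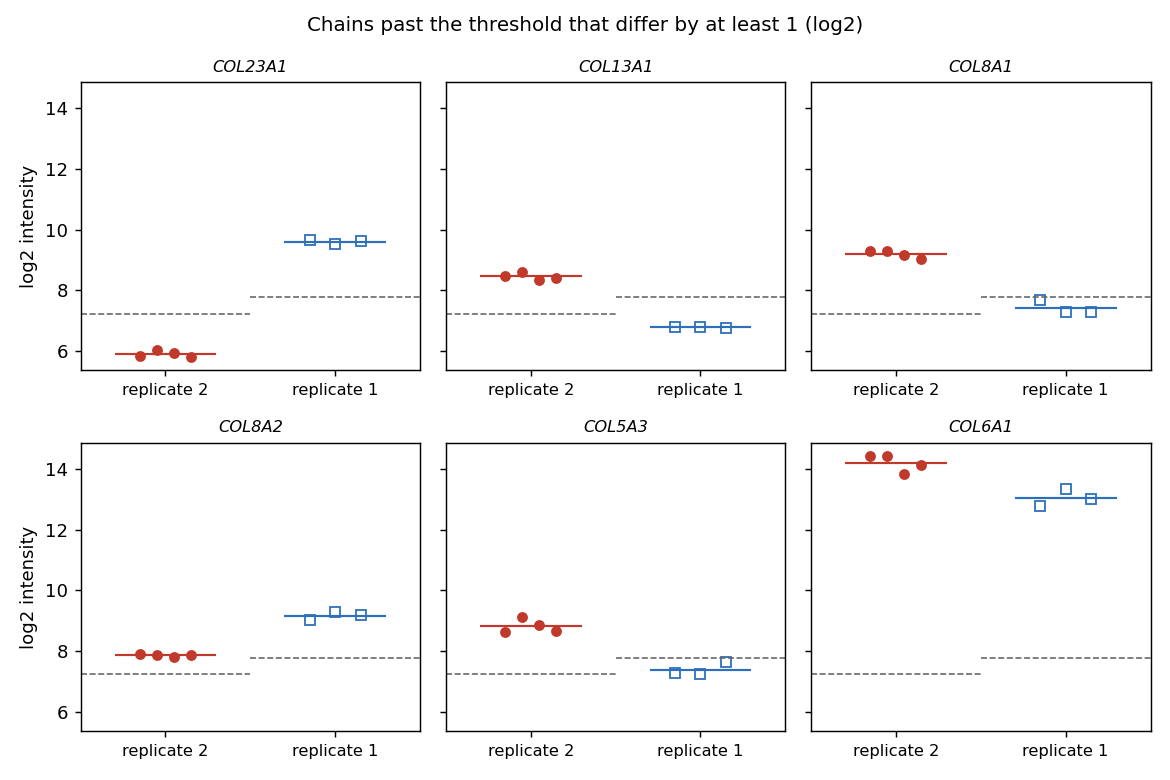
Log2 intensity of the 6 chains past the threshold that differed by at least 1, with arrays of replicate 2 on the left and of replicate 1 on the right of each panel, a solid line at the mean and a dashed line at the background of that replicate. COL23A1 and COL8A2 are lower in replicate 2, and COL13A1, COL8A1, COL5A3 and COL6A1 are higher.

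The remaining 5 chains had 2 higher and 2 lower (80% passed, against 49.8% of all named genes), with a median difference of 0.05. The partner chains of type VIII collagen, which build the hexagonal lattice under the corneal endothelium, moved in opposite directions. COL8A1 had 9.29, 9.31, 9.15 and 9.04 in replicate 2, against 7.69, 7.30 and 7.29 in replicate 1. It was below background in replicate 1 and at least 2.65-fold higher in replicate 2 (adjusted p = 1.06e-05). COL8A2 had 7.90, 7.89, 7.81 and 7.88 in replicate 2, against 9.03, 9.28 and 9.20 in replicate 1. It was above background in both and 2.46-fold lower in replicate 2 (-1.30 ± 0.09 SE, adjusted p = 1.05e-05). COL26A1 had 7.22, 7.54, 7.07 and 6.81 in replicate 2, against 6.17, 6.71 and 6.27 in replicate 1. It was below the limit of each replicate on average and passed as higher (0.78 ± 0.18 SE, adjusted p = 0.00676), while COL28A1 at 5.82 ± 0.03 did not pass (0.05 ± 0.10 SE, adjusted p = 0.725).

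The 3 chains with more than 1 row were examined row by row, in the fit over all rows, where 48.8% of 24000 rows passed (24.6% higher, 24.2% lower). The rows of COL6A2 agreed in direction, with differences of 1.06 (adjusted p = 0.000127), 0.41 (adjusted p = 0.0184) and 0.52 (adjusted p = 0.00114). Rows of 1 gene read its transcripts on the same arrays, so they are not independent. COL4A6 was higher in both rows, by 0.67 (adjusted p = 0.00997) and 0.94 (adjusted p = 0.00014). The first row had 9.79, 10.42, 10.46 and 10.28 in replicate 2, against 9.35, 9.63 and 9.72 in replicate 1, all above background. The second row had 7.85, 8.08, 8.05 and 8.04 in replicate 2, against 6.88, 7.21 and 7.09 in replicate 1, and lay below background in replicate 1. The rows of COL25A1 differed in sign, with -0.36 (adjusted p = 0.0242) for row 1, which was below background, and 0.12 (adjusted p = 0.544) for row 2. Row 2 had 7.94, 8.45, 8.00 and 7.77 in replicate 2, against 7.87, 8.03 and 7.86 in replicate 1, so that COL25A1 was above background when its brighter row stood for the gene.

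**Figure D4:**
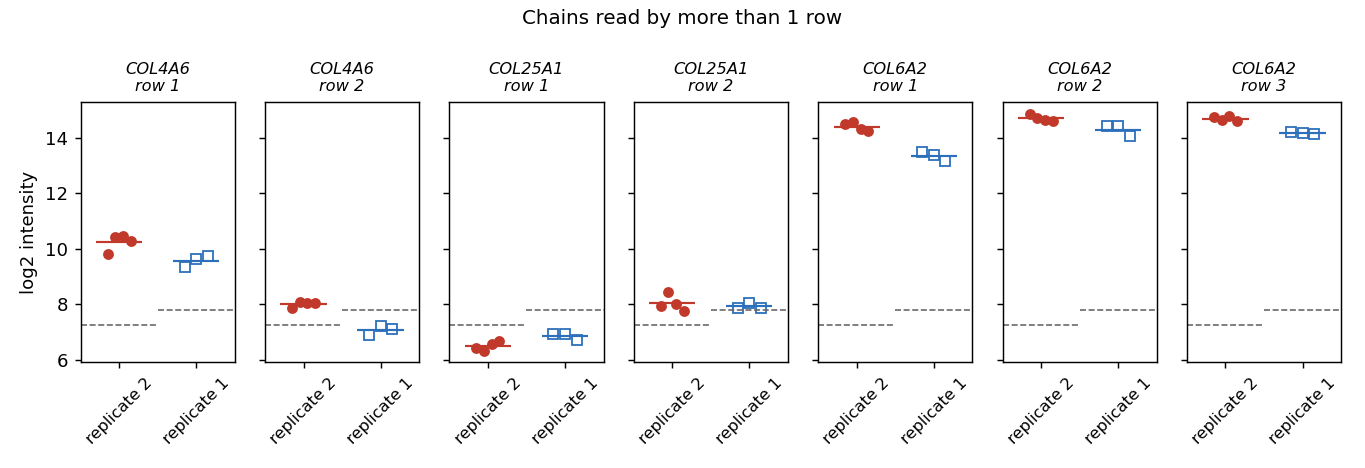
Log2 intensity of the 7 rows of COL4A6, COL25A1 and COL6A2, with arrays of replicate 2 on the left and of replicate 1 on the right of each panel, a solid line at the mean and a dashed line at the background of each replicate. Both rows of COL4A6 and all 3 rows of COL6A2 are higher in replicate 2, and the rows of COL25A1 differ in sign.

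Genes that finish the collagen helix inside the cell were nearly all above background, in 14 of 15 enzymes and partners of hydroxylation and glycosylation. At the threshold 5 were higher and 3 lower in replicate 2, with a median difference of -0.00. These 8 are 53.3% of the list, against 49.8% of all named genes, a share near that background. For the lists that follow the share that passed was 66.7% of folding and export genes, 57.1% of cleavage and cross-linking genes, 90.9% of receptors, 62.5% of proteoglycans and 42.9% of collagen-cutting enzymes. The lysyl hydroxylases PLOD1 and PLOD3 stood at 14.44 ± 0.13 and 13.53 ± 0.02 and P4HB, a subunit of prolyl hydroxylase, at 14.13 ± 0.00, and none of these passed. P4HA1, a catalytic subunit of prolyl hydroxylase, was 2.27-fold higher (1.18 ± 0.16, adjusted p = 0.000282), and P4HA3, another, was below background at 7.22 ± 0.24. The calls of P4HA1, PLOD2 and P3H2 held without any 1 array. Of the 7 fits with 1 array left out, the call held in 6 for PPIB, 4 for P3H4, 2 for COLGALT1, 1 for P4HA3 and 0 for COLGALT2. That of COLGALT2 also ended with arrays centred on olfactory receptor genes (adjusted p = 0.0505). Without array 1 of replicate 1 the list had 3 higher and 1 lower, as without array 3 of replicate 2. Without array 1 of replicate 2 it had 3 higher and 2 lower, and without any of the other 4 arrays the lower count was 1.

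Folding and export genes were above background in 11 of 12 (MIA3 was not analysed here), with 3 higher, 5 lower and a median difference of 0.14. The collagen chaperones SERPINH1 (14.52 ± 0.11) and FKBP10 (14.33 ± 0.12) did not pass. The GTPases SAR1A and SAR1B, which start the coat of vesicles leaving the endoplasmic reticulum, differed in opposite directions, 2.60-fold higher for SAR1A (adjusted p = 0.000233) and 3.35-fold lower for SAR1B (adjusted p = 5.43e-06). The coat subunit SEC13 (10.86 ± 0.89) was 2.40-fold lower (adjusted p = 4.37e-05), and MIA2 was below background at 5.85 ± 0.25. The call of MIA2 held in 2 and that of SEC24D in 1 of the 7 fits with 1 array left out. The list had 3 lower genes without array 2 or 4 of replicate 1 or array 2 or 3 of replicate 2.

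Propeptide cleavage and cross-linking genes were above background in 9 of 14, with 4 higher and 4 lower and a median of -0.05. PCOLCE, an enhancer of procollagen cleavage, was at 14.78 ± 0.32 and 1.36-fold higher (adjusted p = 0.00168). Among the lysyl oxidases, which cross-link fibrils, LOXL3 was 2.55-fold higher (adjusted p = 7.38e-06) and LOX 1.76-fold higher (adjusted p = 6.78e-05), LOXL4 was 2.13-fold lower (adjusted p = 0.000122), and LOXL1 (13.87 ± 0.05) did not pass. TLL1, a protease of procollagen, was below background at 5.58 ± 0.07. The call of ADAMTS2 held in 2 and that of ADAMTS3 in 1 of the 7 fits with 1 array left out. That of ADAMTS3 ended as well with a block for the array number (adjusted p = 0.0565) and with centring on olfactory receptor genes (adjusted p = 0.0531). The lower count was 2 without array 4 of replicate 1 or array 1, 3 or 4 of replicate 2.

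**Figure D5:**
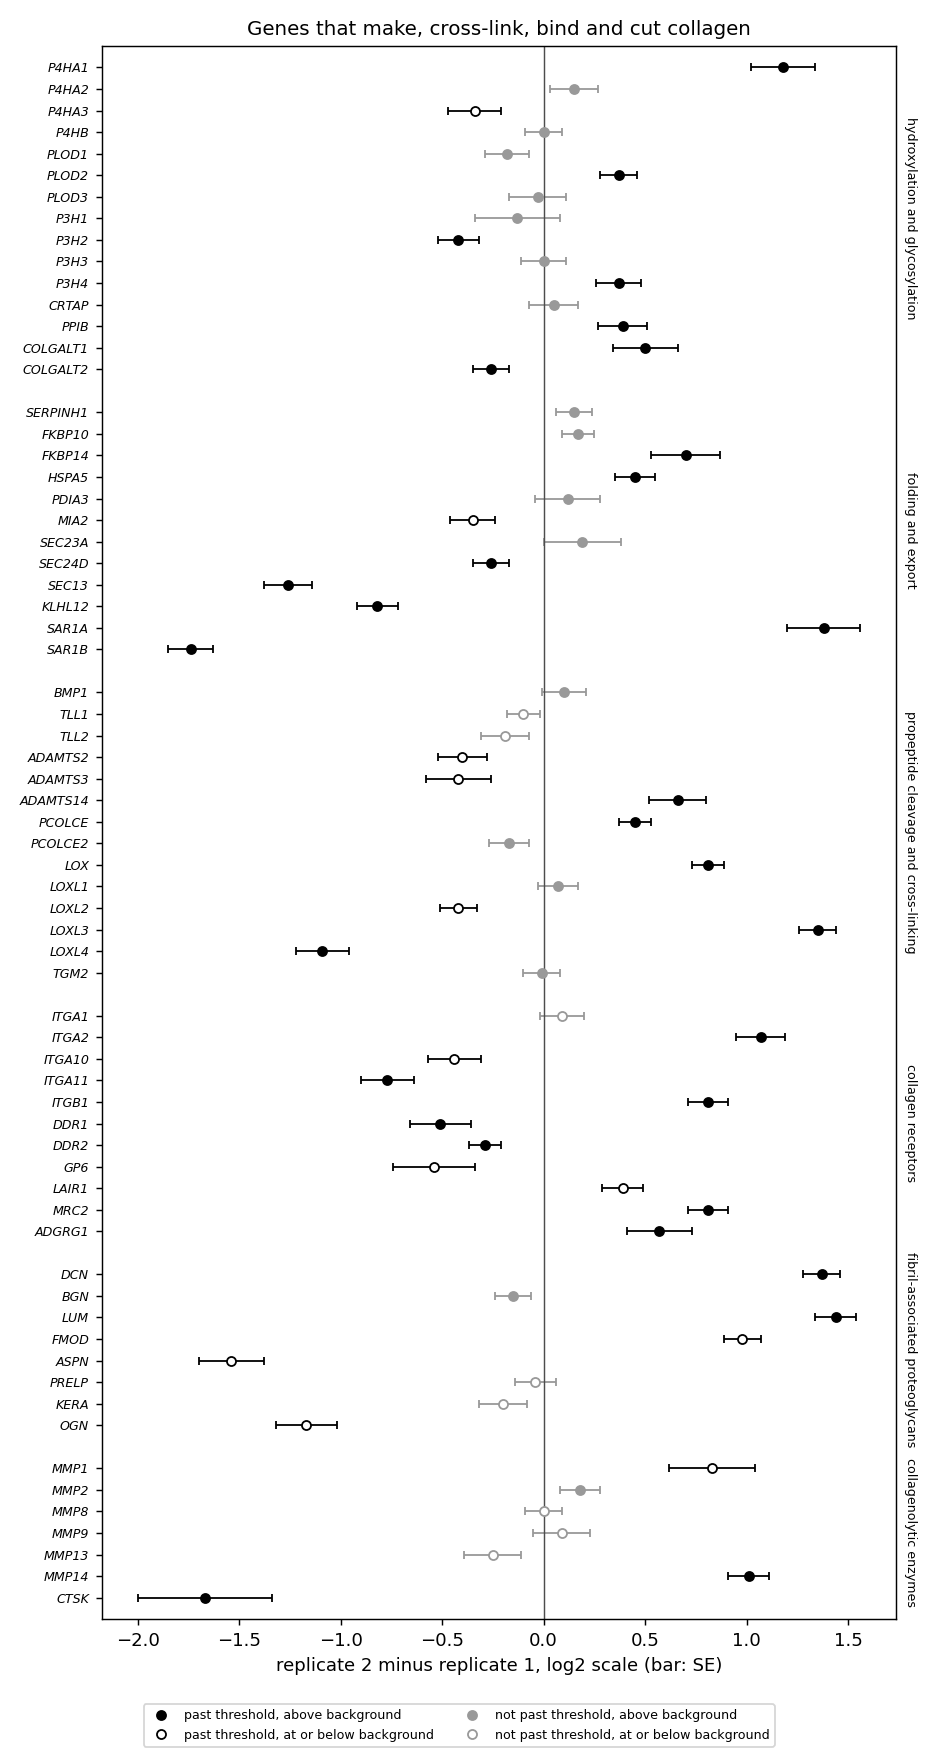
Replicate 2 minus replicate 1 on the log2 scale, with its SE as a bar, for the 67 measured genes of collagen making, cross-linking, binding and cutting, grouped by list; black marks passed the threshold and open marks are at or below background. Each list holds marks past the threshold on both sides of 0.

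Collagen receptors had 5 higher and 5 lower genes of 11, with 7 above background and a median of 0.09. ITGB1, the integrin subunit shared by collagen-binding integrins, was 1.76-fold higher (adjusted p = 0.000222) and ITGA2 2.10-fold higher (adjusted p = 8.33e-05), while ITGA11 was 1.70-fold lower (adjusted p = 0.000999). MRC2, an endocytic receptor for cut collagen, was at 13.18 ± 0.57 and 1.75-fold higher (adjusted p = 0.000151). The receptor kinase DDR2 (12.77 ± 0.21) was 1.22-fold lower (adjusted p = 0.0128), and ITGA10, an integrin subunit, was below background at 6.32 ± 0.31. With 1 array left out, the call of ITGA10 held in 6 of 7 fits, that of ADGRG1 in 5 and that of GP6 in 2. Without array 1 of replicate 1 the counts were 4 higher and 3 lower.

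Proteoglycans that bind fibrils had 3 of 8 above background, 3 higher and 2 lower, with a median of -0.10. BGN was at 12.28 ± 0.11 and did not pass. DCN and LUM, also fibroblast markers, were at least 1.80-fold and 1.56-fold higher in replicate 2 (adjusted p = 6.54e-06 and 1.07e-05), and ASPN (-1.54) and OGN (-1.17) passed as lower but were below background in both replicates, as was PRELP at 5.63 ± 0.03. The 10 fibroblast markers had 5 higher and 1 lower (60% passed, against 49.8% of all named genes). The call of PRRX1 ended without array 1 or array 2 of replicate 1, which left 4 higher. They had 2 lower, with TWIST1, without array 2 of replicate 2. This was so too with a block for the array number, where TWIST1 had an adjusted p of 0.0212. Their mean level per array was 8.42 to 8.50 in replicate 2 and 8.11 to 8.13 in replicate 1. The 7 osteoblast markers had 5 higher and 0 lower (71.4% passed, against 49.8% of all named genes). Of these 5, BGLAP alone was above background, with SP7, IBSP, SPP1 and ALPL below it in both replicates. ALPL had overlapping arrays (adjusted p = 0.046), and its call held in 2 of the 7 fits with 1 array left out. RUNX2, also above background, did not pass (-0.29, adjusted p = 0.175). The mean of the osteoblast markers was 7.21 to 7.39 in replicate 2 and 6.85 to 6.93 in replicate 1. The part of the fibroblast and osteoblast markers in the collagen differences was not tested. Collagen-cutting enzymes had 3 of 7 above background, 2 higher and 1 lower (2 lower without array 1 of replicate 1), with a median of 0.09. MMP14, a membrane-bound collagenase, was at 13.18 ± 0.71 and 2.01-fold higher (adjusted p = 5.27e-05), CTSK, a protease known from osteoclasts, was 3.18-fold lower (adjusted p = 0.00245), MMP2, a gelatinase, was at 10.50 ± 0.13 and did not pass, and MMP8, the collagenase of neutrophils, was below background at 5.58 ± 0.00.

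Arrays were also compared by number within the collagen rows. Across these rows the deviations from the replicate mean correlated between replicates with r = 0.62 for array 1, 0.66 for array 2 and 0.44 for array 4. Of the 9 pairs of different number, array 3 of replicate 2 with array 4 of replicate 1 had 0.53, above the pair of arrays 4, and the others ran from -0.47 to 0.19. Deviations within a replicate cancel out, so a positive r for some pairs pulls the others down. The rows share arrays, so these are descriptions. Array 2 was the lowest of the 3 shared numbers in both replicates for 10 chains (23.3%, against 17.6% of all named genes), among them COL1A2, COL2A1, COL5A1, COL5A2, COL12A1, COL14A1 and COL15A1. It was the highest in both for 12 chains (27.9%, against 22.2% of all named genes), among them COL1A1, COL3A1 and COL6A1. Array 1 was the highest in both for 11 chains (25.6%, against 12% of all named genes), among them COL4A1, COL7A1, COL18A1 and COL6A2.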

How the data were processed

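Expression was measured on 7 Cy3 arrays of Daoy cells. The authors deposited 1 log2 intensity per row and array. RMA and limma are named, without versions or roles, per the submitters' processing notes. The sorted columns agreed within 0.002, as quantile normalization leaves them. The log base was taken from RMA's convention and the range of 5.25 to 15.46. The sources used here state neither genome build nor annotation, and no detection call or probe-level value was used. Of 24000 rows, 19125 matched 1 symbol through RefSeq accessions (GRCh38.p14), 0 several and 4875 none. Rows of a gene were averaged.

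Replicates were compared with limma 3.58.1 in R 4.3.3 (lmFit, eBayes, Benjamini-Hochberg over all 17217 named genes, and separately over all rows). The step was tested on simulated rows with independent noise on each array. These hold no effect of culture, slide or array number, so the run cannot show how such effects bear on the adjusted p. The number of arrays limits the precision, and nothing states how the arrays of a replicate were prepared. Same-numbered arrays deviated together from their replicate means (r = 0.21, 0.35 and 0.40 over all rows, against -0.38 to 0.20 for the pairs of different number, the highest being array 3 of replicate 2 with array 4 of replicate 1). Deviations within a replicate cancel out, so a positive r for same-numbered pairs pulls the other pairs down. The contrast is therefore partly built in. The labels do not state a pairing. The reported differences, SE and adjusted p come from a fit that ignores it, and the array number was used as a block in an alternative fit only. Alternatives were the array number as a block, each array left out, dim features removed, a mean-variance trend, a minimum difference of 1, the brightest row per gene, other backgrounds, and centring on olfactory receptor genes. All members are named. Per-array values are given for chains past the threshold with a difference of at least 1, the 3 brightest per class, chains within 0.5 of background and chains with several rows. In the pathway lists the 3 with the highest intensity, the 1 with the lowest and members past the threshold with a difference of at least 1 are named. Markers of other cell types had no such rule, and those named were chosen after their values were seen. Members and lists were chosen with earlier results of these data known.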

Additional observations from a re-analysis of the deposited data

Results flagged for a closer look

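In replicate 2, which has 4 arrays, 1 array stood far from the other 3 for 14 of 175 genes and rows examined (the gap to the nearest array, as a share of the whole range, was above Dixon's 95% critical value), and chance gives about 1 in 20. Replicate 1, with 3 arrays, was not examined. Among collagen chains, COL14A1 was at 5.71 on array 2, against 7.60 to 7.92 on the others, and COL19A1 was at 5.46 on array 3, against 5.55 to 5.56, a small gap below background. Array 2 was low for COLGALT2 (8.26, others 8.47 to 8.49) and SPP1 (6.42, others 6.58 to 6.59), and high for ADAMTS2 (7.0, others 6.52 to 6.60), SOX9 (10.05, others 9.84 to 9.86) and MYH11 (9.99, others 9.68 to 9.73). Array 4 was high for SERPINH1 (14.76, others 14.53 to 14.56) and low for LUM (8.27, others 8.48 to 8.50), ZIC1 (5.60, others 5.69 to 5.71) and KRT5 (5.83, others 5.92). Array 1 was high for MMP14 (13.82, others 13.64 to 13.65) and CSPG4 (10.60, others 10.34 to 10.38), and array 3 was low for FBN1 (6.60, others 6.86 to 6.89).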

How the results depend on the processing

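The totals of higher and of lower chains stayed within 1.5 times the reported ones except where a minimum difference was required. Higher chains numbered 12 in the reported fit, 11 to 12 with 1 array left out and 12 with the array number as a replicate block, and lower chains numbered 13, 12 to 16 and 15. The block changed the call of no other chain than COL14A1 and COL27A1. With a mean-variance trend there were 12 higher and 16 lower, and without dim genes 11 and 9 of the 29 chains kept. With a difference of at least 1 required, 4 chains were higher and 2 lower, 1545 genes passed in place of 8568, and 2453 rows in place of 11701. Without dim rows 7719 rows passed, since fewer rows were tested. With 1 array left out 7331 to 8130 genes and 9980 to 11084 rows passed, and with the block 9392 and 12919. Above background were 29 chains, also with any 1 array left out. The 99th percentile of olfactory receptor genes gave 3 FACIT chains (from 5), 0 transmembrane chains (from 2) and 1 of the remaining chains (from 2), and replicate 1 alone gave 1 transmembrane and 1 of the remaining chains. No chain reversed its direction where it was called. Values near background are limited by the signal over it.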
